A study of Drosophila melanogaster with 48 samples.

Results

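The first day of metamorphosis was described in wild-type *Drosophila melanogaster* from 6 whole-animal RNA-Seq libraries, 3 of pupae 24 h after the white pupa stage (P1) and 3 of white pupae, the immobile animals that have just formed a puparium and are called white prepupae (WP) here. These 6 libraries belong to a series of 48, made from 2 genotypes at 8 stages with 3 replicates each. All 12282 of the 17558 genes in the deposited table that reached 3 FPKM (fragments per kilobase of gene, scaled to library size) in at least 1 of the 48 libraries were compared, and the other 5276 were not tested. At this minimum *CG33062* and *CapaR* lay just inside (both with a highest value of 3.00 FPKM), and *Ugt49B2* and *Dhc62B* just outside (both 3.00 FPKM, 2.9990 and 2.9992 before rounding). The wild-type line carries the label wOB and the mutant line the label ptth120BC2. The study's own text describes wild type as w1118 and the mutant as a null allele of *Ptth*, and the match of these names to the labels is not stated in the sources used here. Each library came from a pool of about 15 whole animals by the labels and of 10 to 15 by the study's methods. The sex of the animals is not given. *Ptth* mutants at the same stages, 3 libraries each, serve in one comparison at the end.

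Metamorphosis is driven by pulses of the steroid hormone ecdysone. A large pulse at the end of the third instar brings about puparium formation, a smaller pulse follows in the prepupa, and another large pulse comes in the pupa. Ecdysone acts through a heterodimer of the receptor EcR with Usp, which switches on a small set of early regulators and, through them, large groups of late genes. Larval organs such as the salivary gland, the midgut and most muscles are then dismantled, while imaginal discs and histoblasts build the adult epidermis, and new muscles and neurons form. At P1 a wild-type animal has everted its head and discs and lies within a pupal cuticle inside the tanned puparium.

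The libraries held 21518287 to 26091126 reads on genes at P1 and 22745205 to 25837854 in white prepupae, as recovered from the FPKM values. The first principal component of the 6 libraries carried 93.9% of the variance and separated the stages, and the second (3.15%) spread the replicates within each stage, with replicate 2 of the white prepupae farthest out. Spearman correlations were at least 0.985 within a stage. The 10 largest genes took 10.2% ± 0.312 of reads at P1 and 14.8% ± 0.362 in white prepupae, and genes of the mitochondrial genome took 5.27% ± 0.517 at P1 and 6.65% ± 0.335 in white prepupae (SD, n = 3 each, exact two-sided permutation p = 0.1 for each, the smallest that 3 against 3 allows). The scaling behind the FPKM divided each library by 1.48 to 1.51 times its sum of reads at P1 and by 1.17 to 1.26 times in white prepupae, so the authors' scaling already moved the stages against each other. With the libraries scaled to their own totals instead, the median log2 change of all genes was 0.35 in place of 0.08, a shift of 0.27. In every value below a smaller number of cells of a type and less RNA per cell of that type cannot be told apart, because whole animals were sequenced.

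At P1, 731 genes were higher than in white prepupae and 1252 were lower, where the change had to exceed 2-fold with an adjusted p below 0.05. The test was limma on log2(FPKM + 1) with Benjamini-Hochberg adjustment over the 12282 genes, two-sided. This is 5.95% of the tested genes in the upward and 10.2% in the downward direction, shares against which the counts for each gene group below are to be read. The log2 change was above 0 for 7010 of the 12282 tested genes, called or not, against which the counts above 0 are to be read. Of the genes called, 36.9% were higher at P1. This split depended on the scaling, since 1777 genes were higher and 1028 lower (63.4% higher) with libraries scaled to their own totals, and 817 and 1136 (41.8% higher) after quantile normalization. Of the 1983 calls, 1750 and 1757 stood in the same direction under those scalings. The drops reached further than the rises. The means differed by at least 100-fold for 186 of the lower genes and for 45 of the higher ones, and by at least 10-fold for 452 and 180.

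**Figure D1:**
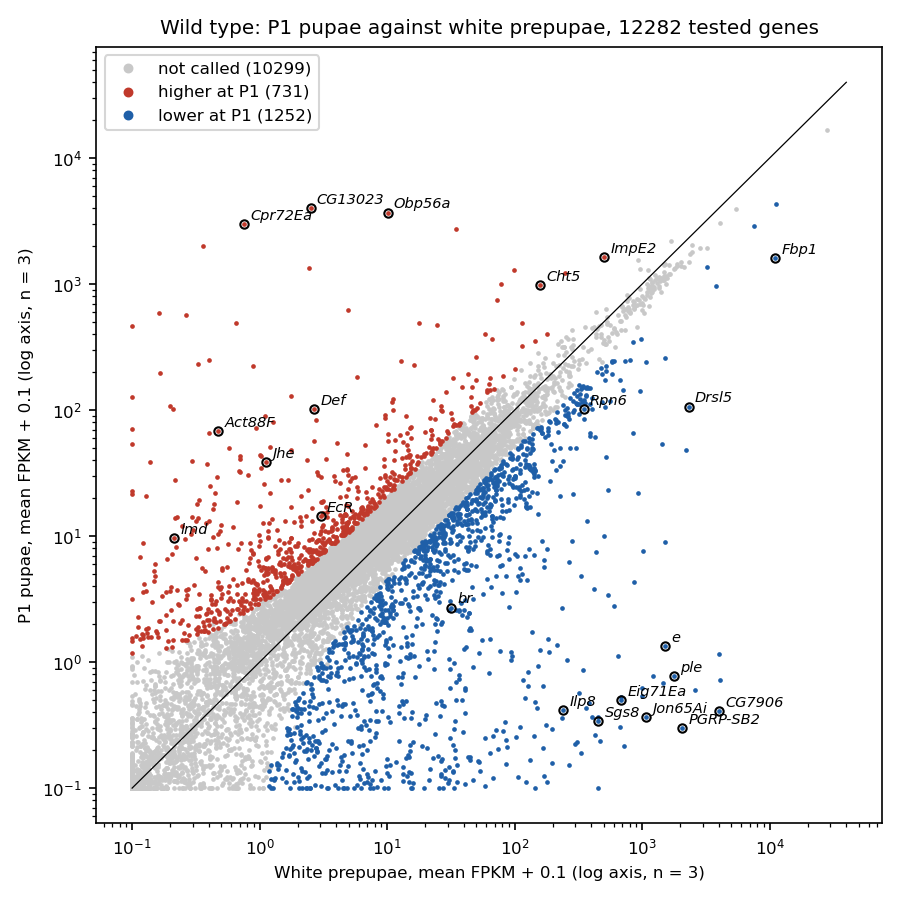
Mean FPKM plus 0.1 of each tested gene at P1 (vertical, log axis) against white prepupae (horizontal, log axis), 3 wild-type libraries each, with genes higher at P1 in red (731), lower at P1 in blue (1252) and not called in grey. Labelled genes are ringed, and the lower right holds abundant prepupal genes such as *ple* and *CG7906* that fell below 1 FPKM.

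On the scale of log2(FPKM + 1), which shrinks the changes of genes near 0, and among genes with a mean of at least 10 FPKM, the steepest rise was that of *Cpr72Ea*, which encodes a chitin-binding cuticle protein of the Rebers and Riddiford family (FBgn0036617, chromosome 3L, 16362603 to 16363750, BDGP6 as in the deposited table). It stood at 3026, 3218 and 2709.8 FPKM at P1, against 0.623, 0.776 and 0.563 FPKM in white prepupae (log2 change 10.82 ± 0.08, adjusted p = 9.6e-08). Here and below, values after ± are the SE for a log2 change and the SD over 3 libraries for a mean. Its neighbours in the ranking were mostly genes without a name. *CG34247* had 1710.3, 2348 and 1943 FPKM at P1, against 0.107, 0.505 and 0.174 FPKM in white prepupae (log2 change 10.63 ± 0.16, adjusted p = 5.1e-07). *CG13023*, the third most abundant transcript at P1, had 3935, 4029 and 4046 FPKM at P1, against 2.14, 2.96 and 2.14 FPKM in white prepupae (log2 change 10.21 ± 0.10, adjusted p = 1.5e-07). Only called genes whose libraries did not overlap between the stages entered this ranking and that of the drops. That every P1 library lay above every white prepupal one was therefore set by the choice of genes. In these genes the spread between replicates was small beside the distance between the stages. *CG18735*, which the deposited table places in the trypsin family, averaged 595 ± 58.3 FPKM at P1 and 0.0633 ± 0.0848 FPKM in white prepupae. *CG14244* averaged 569 ± 58.3 FPKM at P1 and 0.166 ± 0.113 FPKM in white prepupae, *CG1850* 1344 ± 286 FPKM at P1 and 2.32 ± 0.519 FPKM in white prepupae and *CG13053* 494 ± 52.96 FPKM at P1 and 0.558 ± 0.523 FPKM in white prepupae. *CG11570* had 462, 482 and 441 FPKM at P1 and no read in any of the 3 white prepupal libraries, which makes it at least 4219.8-fold higher at P1 against a floor of 3 reads per library. 2 of the 10 steepest rises belong to named families of other kinds. *Obp56a*, of the odorant-binding protein family, averaged 3699 ± 415 FPKM at P1 and 9.99 ± 0.0960 FPKM in white prepupae (log2 change 8.39 ± 0.09, adjusted p = 1.5e-07), and *NimC4*, a Nimrod receptor for apoptotic cells on phagocytes, averaged 249.7 ± 14.6 FPKM at P1 and 0.298 ± 0.0608 FPKM in white prepupae (log2 change 7.59 ± 0.07, adjusted p = 1.1e-07).

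The 10 steepest drops were held by genes that were abundant in white prepupae and close to nothing a day later. *CG7906* had 0.274, 0.349 and 0.300 FPKM at P1, against 4334, 3923 and 3739 FPKM in white prepupae (log2 change -11.58 ± 0.06, adjusted p = 4.1e-08). *CG7924* had 0.538, 0.817 and 0.493 FPKM at P1, against 4386, 4024 and 3805 FPKM in white prepupae (log2 change -11.30 ± 0.09, adjusted p = 1.1e-07), and *CG42500* had 0.840, 1.29 and 1.04 FPKM at P1, against 5172, 3897 and 3036 FPKM in white prepupae (log2 change -10.91 ± 0.20, adjusted p = 8.4e-07). All 3 were among the 10 most abundant genes of white prepupae and had P1 values near 1 FPKM or below. *CG34244* (0.503 FPKM at P1 and 2583 FPKM at WP) and *CG10912* (0.436 FPKM at P1 and 1007 FPKM at WP) also have no name. *PGRP-SB2*, a short peptidoglycan recognition protein, averaged 0.202 ± 0.0239 FPKM at P1 and 2071 ± 433 FPKM in white prepupae (log2 change -10.73 ± 0.14, adjusted p = 3.7e-07). *ple*, tyrosine hydroxylase, is described with cuticle tanning below. *CG11912*, *Jon65Ai* and *Jon65Aiv* are serine protease genes, the last 2 of the Jonah family of digestive enzymes, and fell to 0.278, 0.496 and 0.0266 FPKM at P1 for *Jon65Ai*, against 1252, 1079 and 874 FPKM in white prepupae.

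Among the 10 highest genes of either stage some were not called. Mitochondrial *mt:lrRNA* was the highest of both, with 15332, 18338 and 16245 FPKM at P1, against 30026, 29199 and 25192 FPKM in white prepupae (log2 change -0.76 ± 0.40, adjusted p = 0.15, not called), and *mt:CoI* and *mt:CoIII* were not called either (log2 change -0.44 ± 0.15 and -0.47 ± 0.18). *bnb* reached the P1 ranks with 2802, 2797 and 2684 FPKM at P1, against 28.4, 36.3 and 38.5 FPKM in white prepupae (log2 change 6.30 ± 0.12, adjusted p = 8.4e-07), while *alphaTub84B*, an alpha tubulin, changed by only 0.39 ± 0.09. *Fbp1*, the fat body receptor for larval serum proteins, the third most abundant gene of white prepupae, had 1808, 1579 and 1454 FPKM at P1, against 10664, 11861 and 10548 FPKM in white prepupae (log2 change -2.78 ± 0.16, adjusted p = 4.7e-05). *CG6770* averaged 972 FPKM at P1 and 3797 FPKM at WP (log2 change -1.96 ± 0.14). *Obp99b*, second at both stages, averaged 4357 ± 420.3 FPKM at P1 and 11279 ± 2654 FPKM in white prepupae, a log2 change of -1.35 ± 0.25 that was called. Without P1 replicate 3 it was not called, since the change of -1.27 had an adjusted p of 0.0502 in the limma test. After quantile normalization the change was 0.06.

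In the ecdysone pathway the receptor gene rose and part of the early regulators fell. *EcR* had 15.4, 14.3 and 13.2 FPKM at P1, against 2.49, 3.26 and 2.97 FPKM in white prepupae (log2 change 1.97 ± 0.10, adjusted p = 3.1e-05), and no library of one stage reached the other. Its partner *usp* was not called (log2 change -0.39 ± 0.05). Of the 19 tested genes of the receptor, early and early-late group, 1 rose and 7 fell (4 and 7 with library totals). *br*, the Broad zinc finger factors that specify pupal fate, had the largest drop on the log2(FPKM + 1) scale, though the means of *Hr3* and *Kr-h1* differed by larger ratios. It had 2.98, 2.55 and 2.31 FPKM at P1, against 25.3, 36.6 and 33.6 FPKM in white prepupae (log2 change -3.17 ± 0.16, adjusted p = 2.2e-05). *Hr3*, an early-late nuclear receptor, averaged 0.122 FPKM at P1 and 3.59 FPKM at WP, the juvenile hormone response factor *Kr-h1* 0.00364 FPKM at P1 and 2.93 FPKM at WP and the calcium-binding *Eip63F-1* 1.42 FPKM at P1 and 7.84 FPKM at WP (log2 changes -2.03 ± 0.09, -1.97 ± 0.07 and -1.87 ± 0.10). *Hr4*, *E23* and *Eip78C* were the other genes of the group that fell (-1.56, -1.41 and -1.32). *ftz-f1*, the competence factor of the prepupa, and *Eip93F*, which drives adult fate, were picked out after their values were seen and were not called, at 1.83 FPKM at P1 and 0.429 FPKM at WP for the first and 16.2 FPKM at P1 and 9.10 FPKM at WP for the second (log2 changes 0.98 ± 0.08 and 0.77 ± 0.07). *ftz-f1* was past the threshold with limma-voom on the recovered reads (2.09), with a pseudocount of 0.1 or 0.25 (1.87 and 1.61), with library totals (1.30) and without P1 replicate 3 or white prepupal replicate 2 (1.05 and 1.02), and *Eip93F* with library totals (1.09).

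Among ecdysone-inducible genes of imaginal discs and epidermis, directions differed from gene to gene. Of 12 tested Imp and Edg genes, 3 rose and 3 fell. *ImpE2*, secreted by everting discs, rose to 1615, 1685 and 1598 FPKM at P1, against 482, 535 and 496 FPKM in white prepupae (log2 change 1.69 ± 0.07, adjusted p = 1.5e-05). The pupal cuticle genes *Edg91* (20.7 FPKM at P1 and 2.03 FPKM at WP, log2 change 2.85 ± 0.14) and *Edg78E* (4.497 FPKM at P1 and 0.516 FPKM at WP, 1.88 ± 0.15) also rose. *ImpE3* fell to 19.0, 20.8 and 19.7 FPKM, against 114, 102 and 94.2 FPKM in white prepupae (log2 change -2.32 ± 0.08, adjusted p = 6.1e-06). *ImpE1* (9.44 FPKM at P1 and 31.02 FPKM at WP) and *MsrA*, a methionine sulfoxide reductase (60.8 FPKM at P1 and 174 FPKM at WP), fell as well. *ImpL2*, a secreted binder of insulin-like peptides, differed by 0.15 ± 0.06 and was not called, and *ImpL1*, *Ldh*, *Cth*, *Eip63E* and *Edg84A* were not called either (log2 changes -0.28, -0.83, -0.64, -0.64 and 0.10).

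The late genes of the Eig71E cluster were close to 0 at P1. All 7 tested members fell (11 are listed), with a median log2 change of -8.08. The summed level of the listed genes, here and in the sums below with those under the minimum included, was 2.71 to 2.88 FPKM at P1 against 2147 to 3569 FPKM in white prepupae. These small secreted proteins are late ecdysone targets of the prepupal salivary gland and related tissues. *Eig71Ea* had 0.256, 0.458 and 0.491 FPKM at P1, against 915, 597 and 543 FPKM in white prepupae (log2 change -8.90 ± 0.21, adjusted p = 1.5e-06), and *Eig71Ed*, the lowest of the abundant members, had 0.191, 0.0758 and 0.0610 FPKM at P1, against 257, 129 and 116 FPKM in white prepupae (log2 change -7.15 ± 0.31, adjusted p = 1.4e-05). White prepupal replicate 1 was highest for both, and all white prepupal libraries were over 100 FPKM. *Eig71Eb*, *Eig71Ec*, *Eig71Ef* and *Eig71Eg* changed by -8.86 to -8.01, and *Eig71Ee*, a glue component, by -6.05. They lie in a run of 10 neighbouring tested genes on chromosome 3L, 15648571 to 15662279, all of them lower at P1, with *CG43083*, *CG43084* and *CG43082* as the other members. *CG43083* and *CG43082* had log2 changes of -1.51 and -1.52, and *CG43084*, with no read at P1, was at least 12.8-fold lower at P1.

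Most of the tested hormone synthesis genes were not called. Of 13 listed genes of ecdysteroid synthesis and its control, 6 were under the minimum and not tested. Of the 7 tested genes 2 fell, 5 were not called and none rose, against 10.2% of all genes lower. The list's median, -0.06, turned positive under both other scalings (0.08 after quantile normalization and 0.25 with library totals). *sro*, an enzyme of the early steps in the prothoracic gland, had 4.26, 4.15 and 3.51 FPKM at P1, against 29.0, 26.5 and 20.6 FPKM in white prepupae (log2 change -2.40 ± 0.14, adjusted p = 4.7e-05). *shd*, which converts ecdysone to 20-hydroxyecdysone in peripheral tissues, had 1.35 FPKM at P1 and 5.77 FPKM at WP (log2 change -1.51 ± 0.13). *phtm* and *sad*, further prothoracic gland enzymes, had changes of opposite sign just below the threshold (0.94 ± 0.13 and -0.95 ± 0.08), which both passed with limma-voom (1.07 and -1.05), and *spok* and the sterol transporter *Npc1a* were not called (0.22 and -0.06). *Ptth*, the brain peptide that stimulates this gland, was at 2.52 ± 0.191 FPKM at P1 and 1.78 ± 0.293 FPKM in white prepupae (log2 change 0.34 ± 0.10, adjusted p = 0.028), under 2-fold.

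Juvenile hormone, insulin and moulting peptides were represented by a few strong changes in lists of which most genes were not called. *Jhe*, juvenile hormone esterase, which degrades juvenile hormone, rose to 41.5, 39.6 and 34.8 FPKM at P1, against 1.18, 0.780 and 1.10 FPKM in white prepupae (log2 change 4.30 ± 0.11, adjusted p = 2.3e-06). No other of the 8 tested genes of that pathway was called. The others, *jhamt*, *Jheh1*, *Jheh2*, *Jheh3*, *Met*, *gce* and *Jhedup*, ranged from -0.83 (*gce*) to 0.06 (*Met*) on the log2(FPKM + 1) scale. 3 of these low genes were past the threshold, as lower at P1, with limma-voom and with a pseudocount of 0.1. These were *jhamt*, which synthesizes juvenile hormone (0.00820 FPKM at P1 and 0.556 FPKM at WP, log2 changes -4.94 and -2.61), *gce*, a hormone receptor (0.825 FPKM at P1 and 2.26 FPKM at WP, -1.43 and -1.33), and *Jhedup* (-1.94 and -1.22). *Ilp8*, the relaxin-like peptide through which growing or damaged discs delay metamorphosis, fell to 0.0609, 0.399 and 0.496 FPKM, against 302, 267 and 153 FPKM in white prepupae (log2 change -7.48 ± 0.28, adjusted p = 8.6e-06). *Thor*, the translation inhibitor 4E-BP, fell (150.1 FPKM at P1 and 393 FPKM at WP, log2 change -1.38 ± 0.06, though only -0.65 after quantile normalization), and *Ilp1*, a peptide of the insulin-producing cells in the pupal brain, rose (3.03 FPKM at P1 and 0.315 FPKM at WP, 1.61 ± 0.08). The other insulin-like peptides, *Ilp2*, *Ilp3*, *Ilp5*, *Ilp6* and *Ilp7*, were not called (log2 changes -0.98, 0.37, -0.78, -0.42 and 0.15, though -1.40 and past the threshold for *Ilp2* with limma-voom), nor were *InR*, *chico*, *foxo* and *Sdr* (0.23, 0.04, -0.37 and 0.02). Of 8 moulting and ecdysis genes only *rk*, the receptor of the tanning hormone Bursicon, was called (0.325 FPKM at P1 and 2.14 FPKM at WP, log2 change -1.24 ± 0.07).

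Genes of the larval salivary gland and midgut fell. Of 10 tested salivary glue genes 6 fell, and the summed level of the listed genes was 0.615 to 1.03 FPKM at P1 against 1110.1 to 1430.1 FPKM in white prepupae. Glue is the secretion that fixes the puparium to its substrate. *Sgs8* had 0.147, 0.438 and 0.141 FPKM at P1, against 412, 471 and 479.7 FPKM in white prepupae (log2 change -8.52 ± 0.11, adjusted p = 3.7e-07), *Sgs5bis* averaged 0.267 ± 0.0242 FPKM at P1 and 454 ± 117 FPKM in white prepupae and *Sgs7* 0.0916 ± 0.0987 FPKM at P1 and 332 ± 49.8 FPKM in white prepupae. *Sgs5* and *Sgs4* had no read in any P1 library, with 24.0, 38.03 and 37.4 FPKM in white prepupae for *Sgs5*, at least 253-fold lower at P1. *Sgs3* fell too, with 0.214, 0.0851 and 0.205 FPKM at P1, against 7.77, 32.1 and 30.7 FPKM in white prepupae, where white prepupal replicate 1 was far below the others. The *Sgs4* gene overlaps *dnc*, and *Sgs1*, *ng1*, *ng2* and *ng3* were at or near 0 in both stages.

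Digestive enzymes of the larval midgut gave the longest list of drops. Of 46 tested genes 32 fell and none rose, with a median log2 change of -1.89 against 0.08 for all genes. The summed level of the listed genes was 203 to 229.9 FPKM at P1 against 4135 to 4673 FPKM in white prepupae. *Jon65Aiv* had 0.467, 1.15 and 0.392 FPKM at P1, against 1142, 1252 and 1239.7 FPKM in white prepupae (log2 change -9.53 ± 0.17, adjusted p = 7.8e-07). *Jon65Aii* averaged 0.0126 FPKM at P1 and 181 FPKM at WP, *Jon66Ci* 0.159 FPKM at P1 and 141 FPKM at WP and *alphaTry* 0.545 FPKM at P1 and 167 FPKM at WP. The other 14 were not called, among them *Mal-A5*, a maltase, with 106, 111 and 96.0 FPKM at P1, against 173, 158 and 134 FPKM in white prepupae (log2 change -0.56 ± 0.11). 2 of the 3 longest runs of neighbouring called genes were made of such proteases. The trypsin cluster on chromosome 2R, 11339186 to 11356128, held 10 genes in a row that fell, which are *zetaTry*, *etaTry*, *thetaTry*, *alphaTry*, *epsilonTry*, *betaTry*, *gammaTry*, *CG30031*, *CG30025* and *deltaTry*. The log2 change was -6.79 in *alphaTry* and -1.11 in *zetaTry*. *gammaTry*, *CG30025* and *deltaTry* had no read in any P1 library. These 3 are near-identical copies with *CG30031*, so how their reads were divided is uncertain. A run of 8 on chromosome 3L, 6033199 to 6054443, held the 4 Jon65A genes, *yip7* (0.194 FPKM at P1 and 198 FPKM at WP), *CG10477*, *CG6462* and *lncRNA:CR43952*, all lower at P1. *Jon65Aiii* retained the highest P1 level of the run, 3.77, 4.21 and 3.18 FPKM, against 388, 443 and 421 FPKM in white prepupae.

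Fat body storage genes were mostly not called. The larval serum protein genes *Lsp1alpha*, *Lsp1beta*, *Lsp1gamma* and *Lsp2*, which encode hexamerins stored for adult growth, differed by -0.19 ± 0.32, -0.17 ± 0.20, -0.29 ± 0.21 and 0.17 ± 0.07 on the log2 scale and were not called. *Lsp1beta*, for example, had 601, 594 and 512 FPKM at P1, against 684, 800.1 and 476 FPKM in white prepupae, with overlapping groups. *Fbp2* fell beside *Fbp1*, to 1455, 1524 and 1113 FPKM at P1, against 3696, 3383 and 2614 FPKM in white prepupae (log2 change -1.24 ± 0.20, adjusted p = 0.0029), but its change was -0.75 after quantile normalization and -0.92 with library totals. The median of the 6 genes, -0.24, was positive under both of these scalings (0.37 and 0.08). Of 10 genes of lipid storage and transport, *Apoltp*, a lipid transfer particle, rose (7.76 FPKM at P1 and 1.59 FPKM at WP, 1.75 ± 0.07), and the acyltransferase *mdy* fell (8.06 FPKM at P1 and 20.97 FPKM at WP, -1.28 ± 0.06, though under 2-fold with library totals). *bmm*, *Hsl*, *Lsd-1*, *Lsd-2*, *Lpin*, *Mtp*, *apolpp* and *ACC* were not called, with -0.54 (*Lsd-1*) to 0.72 (*Hsl*), but *apolpp* was higher after quantile normalization (1.26) and *Hsl* with library totals (1.03).

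**Figure D2:**
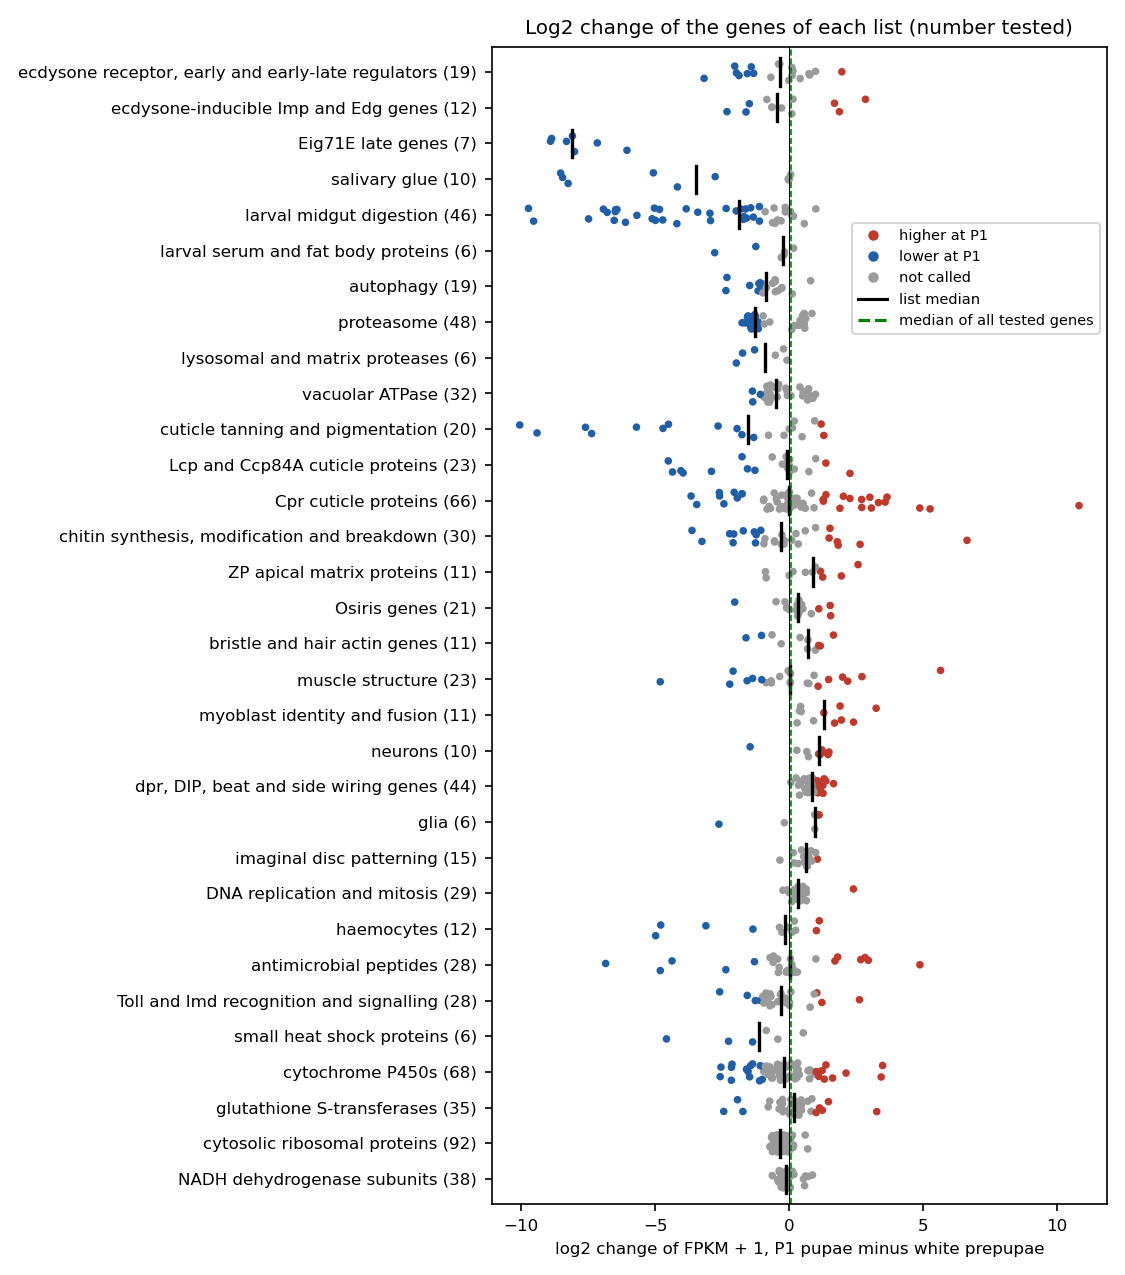
Log2 change of FPKM + 1, P1 minus white prepupae, of every tested gene in 32 lists, with red points higher at P1, blue points lower and grey points not called. Black bars are list medians, and the dashed line is the median of all tested genes (0.08). The medians of the fat body, haemocyte, ribosomal protein and NADH dehydrogenase lists change sign under at least 1 other scaling.

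Part of the genes of degradation fell. Of 19 tested autophagy genes 7 fell and none rose at P1, with a median of -0.85. *Atg7*, the E1-like enzyme of Atg8 lipidation, had 14.4, 14.9 and 13.01 FPKM at P1, against 81.4, 78.1 and 69.4 FPKM in white prepupae (log2 change -2.36 ± 0.08, adjusted p = 5.9e-06), and *Atg18b* had 9.58, 8.96 and 8.58 FPKM at P1, against 47.5, 51.7 and 48.1 FPKM in white prepupae (log2 change -2.32 ± 0.06, adjusted p = 2.2e-06). *Atg2*, a lipid transfer protein, averaged 11.1 ± 0.521 FPKM at P1 and 32.8 ± 4.95 FPKM in white prepupae, and the protease *Atg4a* 12.2 ± 0.863 FPKM at P1 and 28.4 ± 1.20 FPKM in white prepupae. With library totals 3 genes of the list were lower and 1 higher, after quantile normalization 4 were lower, and *Atg4a* was at -0.86 with library totals. Of 6 lysosomal and matrix proteases, the cathepsins *CtsB* (172 FPKM at P1 and 676 FPKM at WP) and *CtsL1* (246 FPKM at P1 and 601 FPKM at WP) and the matrix metalloproteinase *Mmp1* (35.4 FPKM at P1 and 120.1 FPKM at WP) fell (log2 changes -1.97 ± 0.10, -1.29 ± 0.10 and -1.74 ± 0.09), while *cathD*, *Mmp2* and *Timp* were not called. *CtsL1* missed 2-fold under both other scalings (-0.61 and -0.97). Of 32 subunits of the vacuolar proton pump 3 were lower and none higher, a share near the 10.2% of all genes that were lower. With library totals 2 subunits were lower and 5 higher.

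Subunits of the proteasome, the main protease of the cytosol and nucleus, fell by similar amounts. Of 48 tested genes 31 fell and none rose. Among the 32 ordinary subunits 30 fell, and all 32 lay between -1.76 and -0.93 on the log2 scale. Of the 16 paralogues whose names end in R or T, several of which are known from the testis, 1 fell and 14 were above 0. *Rpn6* had 106, 103 and 97.6 FPKM at P1, against 367, 347 and 329.8 FPKM in white prepupae (log2 change -1.76 ± 0.06, adjusted p = 5.5e-06), *Rpn3* 76.7, 78.8 and 75.8 FPKM at P1, against 247, 249 and 233 FPKM in white prepupae (log2 change -1.64 ± 0.04, adjusted p = 2.7e-06). *Prosbeta5*, a catalytic subunit, and *Rpn11*, the deubiquitinase of the lid, averaged 119 FPKM at P1 and 353 FPKM at WP, and 90.3 FPKM at P1 and 264 FPKM at WP. In both the libraries of the stages were apart. The number called rested on the scaling, with 21 lower and 1 higher with library totals and 5 lower after quantile normalization, where the median was -0.71 in place of -1.28. *Prosbeta5* and *Rpn11* were at -0.92 and -0.93 there.

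Of 11 cell death genes, *hid*, an inhibitor of the caspase inhibitor Diap1, rose (28.3, 30.7 and 27.8 FPKM at P1, against 7.81, 9.57 and 8.84 FPKM in white prepupae, log2 change 1.62 ± 0.08, adjusted p = 2.8e-05). *Buffy*, of the Bcl-2 family, fell (2.85 FPKM at P1 and 8.91 FPKM at WP, -1.37 ± 0.14). *rpr*, the other main ecdysone-responsive death gene, averaged 20.2 FPKM at P1 and 31.7 FPKM at WP and was not called (log2 change -0.61 ± 0.13). The effector caspase genes *Drice* and *Dcp-1* had changes of opposite sign below the threshold (-0.95 ± 0.07 and 0.68 ± 0.07), and *Dronc*, *Dark*, *Diap1*, *Diap2*, *skl* and *crq* lay between -0.47 (*Dark*) and -0.03 (*Diap2*).

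Genes of cuticle tanning fell in larger number than they rose. This pathway turns tyrosine into dopamine and N-beta-alanyldopamine, which cross-link and colour cuticle. Of 20 tested genes 11 fell and 2 rose, and the summed level of the listed genes was 150.5 to 167 FPKM at P1 against 5397 to 6312 FPKM in white prepupae. *ple*, tyrosine hydroxylase (FBgn0005626, chromosome 3L, 6713356 to 6719525), had 0.833, 0.455 and 0.725 FPKM at P1, against 1504, 2067 and 1756 FPKM in white prepupae (log2 change -10.05 ± 0.14, adjusted p = 4.2e-07). *Ddc*, dopa decarboxylase, had 0.897, 0.720 and 0.697 FPKM at P1, against 331, 358 and 335 FPKM in white prepupae (log2 change -7.59 ± 0.06, adjusted p = 1.1e-07). *b*, the aspartate decarboxylase that supplies beta-alanine, had 3.17, 2.92 and 1.98 FPKM at P1, against 598, 620.1 and 586 FPKM in white prepupae, and *e*, the synthase that joins beta-alanine to dopamine, had 1.17, 1.05 and 1.48 FPKM at P1, against 1331, 1766 and 1458 FPKM in white prepupae (log2 change -7.37 ± 0.13, adjusted p = 7.3e-07 and log2 change -9.40 ± 0.13, adjusted p = 3.7e-07). For these 4 enzymes the white prepupal libraries were all above 300 FPKM and the P1 libraries all below 4 FPKM. *t*, the hydrolase that reverses the step of *e*, rose to 20.4, 18.8 and 17.6 FPKM at P1, against 8.12, 8.57 and 6.48 FPKM in white prepupae (log2 change 1.20 ± 0.11, adjusted p = 3.3e-04), and so did *yellow-h* (5.64 FPKM at P1 and 1.71 FPKM at WP, 1.30 ± 0.15).

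Cuticle genes changed in both directions, with different members in each. Of 66 tested Cpr genes 16 rose and 9 fell, and 41 were not called. After *Cpr72Ea* the rises were led by *Cpr76Bc* (36.4, 37.1 and 43.3 FPKM at P1, against 0.0205, 0.0775 and 0.0167 FPKM in white prepupae), *Cpr100A* (43.2, 32.6 and 35.4 FPKM at P1, against 0.328, 0.207 and 0.335 FPKM in white prepupae) and *Cpr62Bb* (15.0, 15.3 and 12.1 FPKM at P1, against 0.266, 0.108 and 0.217 FPKM in white prepupae), with log2 changes of 5.26 ± 0.09, 4.88 ± 0.12 and 3.65 ± 0.11. The drops were led by *Cpr49Ac* (72.1, 68.1 and 58.5 FPKM at P1, against 665, 972 and 929 FPKM in white prepupae), *Cpr78Ca*, *Cpr12A* and *Cpr65Ec* (log2 changes -3.66 ± 0.17, -3.45 ± 0.10, -2.60 ± 0.13 and -2.59 ± 0.12). Of 23 Lcp and Ccp84A genes 8 fell and 2 rose (4 with library totals). *Lcp1*, *Lcp2*, *Lcp3* and *Lcp4*, neighbours on chromosome 2R from 8430115 to 8438495 and components of the larval cuticle, had log2 changes of -4.51 to -1.55. *Lcp4* had 3.47, 3.93 and 3.10 FPKM at P1, against 118, 104 and 84.4 FPKM in white prepupae. *Pcp*, a pupal cuticle protein gene whose gene overlaps *ade3*, had 7.54, 9.47 and 6.59 FPKM at P1, against 181, 169 and 186 FPKM in white prepupae (log2 change -4.35 ± 0.12, adjusted p = 3.0e-06). *Lcp65Ad* (5.20 FPKM at P1 and 0.272 FPKM at WP) and *Ccp84Ad* (2.41 FPKM at P1 and 0.316 FPKM at WP) rose. Of 24 Tweedle genes *Twdlbeta* rose (12.97 FPKM at P1 and 0.299 FPKM at WP, 3.43 ± 0.14) and *TwdlT* and *TwdlX* fell (-1.78 ± 0.11 and -1.26 ± 0.12).

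Among enzymes that build and break down chitin, 6 of 30 rose and 10 fell, against 7 and 6 with library totals. *Cht5*, a moulting chitinase, rose to 967, 1039 and 963 FPKM at P1, against 186, 142 and 146 FPKM in white prepupae (log2 change 2.65 ± 0.11, adjusted p = 1.4e-05), and *Cht8* to 113, 118 and 95.2 FPKM, against 0.182, 0.0492 and 0.0637 FPKM (log2 change 6.64 ± 0.10, adjusted p = 5.2e-07). *obst-B*, a chitin-binding protein, and the deacetylase *Cda5* rose with them (log2 changes 1.80 ± 0.10 and 1.83 ± 0.07). *serp* and *verm*, chitin deacetylases of trachea and epidermis, fell to 7.04, 7.11 and 6.87 FPKM and 34.3, 33.3 and 31.7 FPKM at P1, against 81.9, 70.9 and 73.3 FPKM and 146, 144 and 141 FPKM in white prepupae (log2 change -3.25 ± 0.06, adjusted p = 9.7e-07 and log2 change -2.09 ± 0.04, adjusted p = 1.1e-06). *Idgf1*, a secreted chitinase-like protein without known chitinase activity, fell (6.45 FPKM at P1 and 90.8 FPKM at WP, -3.62 ± 0.08), as did *Cht4* (4.33 FPKM at P1 and 24.0 FPKM at WP, -2.22 ± 0.12).

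Part of the apical matrix and hair genes rose. Of 11 genes with a zona pellucida domain, which shape the apical matrix between epidermis and cuticle, 4 rose and none fell. *tyn* had 64.9, 63.8 and 65.9 FPKM at P1, against 9.31, 10.7 and 10.2 FPKM in white prepupae (log2 change 2.57 ± 0.06, adjusted p = 1.4e-06), *neo* 84.5, 84.4 and 91.7 FPKM at P1, against 21.2, 23.7 and 20.4 FPKM in white prepupae (log2 change 1.95 ± 0.07, adjusted p = 6.9e-06), *mey* averaged 37.0 ± 2.65 FPKM at P1 and 14.9 ± 0.347 FPKM in white prepupae and *pot* 75.3 ± 2.11 FPKM at P1 and 33.00 ± 2.62 FPKM in white prepupae. *nyo*, *dpy*, *pio*, *dyl*, *zye*, *m* and *qsm* were not called, with log2 changes from -0.88 (*qsm*) to 0.98 (*nyo*), and with library totals *nyo* (1.30) and *dpy* (1.18) were past the threshold, and after quantile normalization 6 genes of the list were higher too. Of 11 genes of bristles and hairs 3 rose and 2 fell, with *ImpE1* above among those that fell. The summed level of the listed genes was 538 to 563 FPKM at P1 against 667 to 746 FPKM in white prepupae. The genes that rose were *sha* (2.48 FPKM at P1 and 0.103 FPKM at WP, 1.65 ± 0.07), *mwh*, which sets the number of wing hairs (3.77 FPKM at P1 and 1.13 FPKM at WP, 1.16 ± 0.08), and *trn* (25.2 FPKM at P1 and 11.2 FPKM at WP, 1.10 ± 0.07). Of 21 Osiris genes, a clustered insect family of cuticle-forming cells, *Osi9* (2.96 FPKM at P1 and 0.357 FPKM at WP), *Osi12* (2.58 FPKM at P1 and 0.237 FPKM at WP) and *Osi22* rose and *Osi6* fell (1.09 FPKM at P1 and 7.55 FPKM at WP). *Osi22* was not above 2-fold without P1 replicate 3 (log2 change 0.90 against 1.11).

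**Figure D3:**
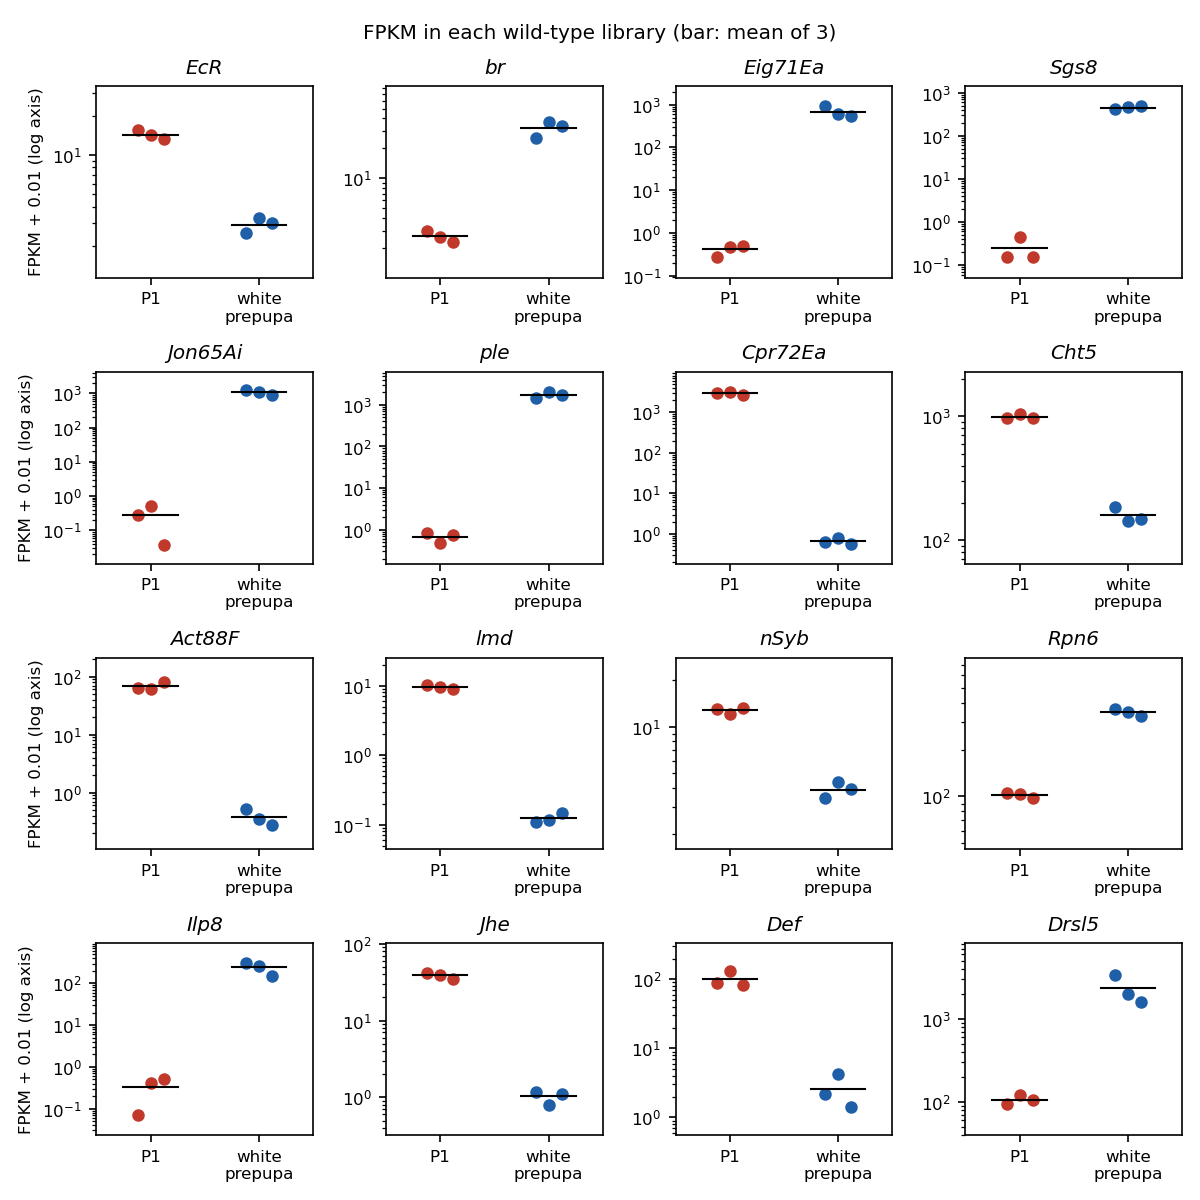
FPKM plus 0.01 on a log axis in each of the 6 wild-type libraries for 16 genes, with P1 libraries in red on the left and white prepupal libraries in blue on the right of each panel and bars at the means. The genes shown were picked from those called, so the gap between the stages' libraries in each panel is a description. The share of all tested genes with such a gap is not given here. *EcR*, for example, had 15.4, 14.3 and 13.2 FPKM at P1 against 2.49, 3.26 and 2.97 FPKM in white prepupae.

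Muscle genes changed in both directions. Of 23 tested genes 6 rose and 6 fell, and the median was 0.04. *Act88F*, the actin of indirect flight muscle, rose to 63.6, 61.1 and 80.4 FPKM at P1, against 0.519, 0.335 and 0.270 FPKM in white prepupae (log2 change 5.65 ± 0.13, adjusted p = 1.5e-06). *Act79B*, an actin of adult leg and other tubular muscle, rose (8.62 FPKM at P1 and 0.468 FPKM at WP, 2.72 ± 0.10), as did *Act87E* (72.1 FPKM at P1 and 15.1 FPKM at WP, 2.19 ± 0.09) and myosin heavy chain, *Mhc* (9.61 FPKM at P1 and 1.66 FPKM at WP, 1.99 ± 0.14). *Zasp66*, a Z-disc protein, fell to 9.16, 9.64 and 8.56 FPKM, against 270.5, 310.4 and 267 FPKM in white prepupae (log2 change -4.81 ± 0.08, adjusted p = 5.2e-07). The thin filament genes *TpnC73F*, a troponin C (32.9 FPKM at P1 and 143 FPKM at WP, -2.09 ± 0.09), and *wupA*, troponin I (15.9 FPKM at P1 and 49.1 FPKM at WP, -1.57 ± 0.09), fell, and so did the thick filament gene *Mf* (1.26 FPKM at P1 and 9.53 FPKM at WP, -2.21 ± 0.10).

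Genes of myoblasts rose more evenly. Of 11 tested genes 6 rose, none fell and all were above 0, with a median of 1.30. *lmd*, a transcription factor of fusion-competent myoblasts, had 10.1, 9.57 and 9.08 FPKM at P1, against 0.101, 0.106 and 0.138 FPKM in white prepupae (log2 change 3.25 ± 0.07, adjusted p = 1.0e-06). The surface receptors of myoblast fusion, *sns* (11.1 FPKM at P1 and 1.28 FPKM at WP), *hbs* (20.7 FPKM at P1 and 4.63 FPKM at WP), *rst* (12.1 FPKM at P1 and 3.05 FPKM at WP) and *kirre* (3.54 FPKM at P1 and 0.849 FPKM at WP), and the membrane protein *sing* (6.54 FPKM at P1 and 1.02 FPKM at WP) rose, by 1.30 (*kirre*) to 2.40 (*sns*) on the log2 scale. *Mef2*, *twi*, *mbc*, *blow* and *rols* lay between 0.30 (*blow*) and 0.91 (*Mef2*) and were not called, though *Mef2* was with library totals (1.23).

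Of 10 neuronal marker genes 6 rose and 1 fell. *nSyb*, neuronal synaptobrevin, had 12.9, 12.1 and 13.1 FPKM at P1, against 3.42, 4.37 and 3.91 FPKM in white prepupae (log2 change 1.49 ± 0.09, adjusted p = 5.8e-05), and *futsch*, a neuronal microtubule protein, 2.94, 2.24 and 2.48 FPKM at P1, against 0.212, 0.336 and 0.342 FPKM in white prepupae (log2 change 1.45 ± 0.09, adjusted p = 5.4e-05). *Rab3*, *cpx*, *Snap25* and *brp*, proteins of synaptic vesicle release, rose by 1.10 (*brp*) to 1.25 (*Rab3*), and *brp* was at 0.98 without white prepupal replicate 1. *Syt1*, the calcium sensor of release, was the gene that fell (6.57 FPKM at P1 and 19.8 FPKM at WP, -1.45 ± 0.09), and the pan-neuronal *elav*, *onecut* and *Syx1A* were not called (0.66, 0.72 and 0.29). Of 44 tested dpr, DIP, beat and side genes, cell surface proteins by which neurons choose partners, 12 rose, none fell and all 44 were above 0, with a median of 0.84. Over all 12282 tested genes 7010 were above 0. *dpr19*, *dpr12*, *DIP-gamma* and *dpr10* led them (1.66, 1.37, 1.31 and 1.27 on the log2 scale). *dpr19* averaged 7.39 FPKM at P1 and 1.66 FPKM at WP and *dpr12* 6.59 FPKM at P1 and 1.94 FPKM at WP. With library totals 31 of the 44 were called. Of 6 glial genes *repo* (7.27 FPKM at P1 and 2.84 FPKM at WP, 1.11 ± 0.08, 0.98 after quantile normalization) and *wrapper* (12.9 FPKM at P1 and 5.37 FPKM at WP, 1.12 ± 0.07) rose, and *Gs2*, glutamine synthetase, fell to 34.1, 34.3 and 31.4 FPKM, against 186, 238 and 206 FPKM in white prepupae (log2 change -2.62 ± 0.10, adjusted p = 8.0e-06). With library totals 4 glial genes were higher.

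The number of patterning genes called rested on the scaling. Of 15 genes of disc patterning only *vg*, the wing selector, was called (9.18 FPKM at P1 and 3.89 FPKM at WP, 1.06 ± 0.08), and not after quantile normalization (0.95), whereas 6 were higher with library totals. 14 of the 15 were above 0, with a median of 0.65. Of 29 genes of DNA replication and mitosis *stg*, the Cdc25 phosphatase that triggers mitosis, rose to 58.2, 57.1 and 55.1 FPKM at P1, against 8.59, 11.6 and 9.91 FPKM in white prepupae (log2 change 2.40 ± 0.10, adjusted p = 1.4e-05), and no other was called. Of 92 cytosolic ribosomal protein genes, 24 of ribosome biogenesis, 72 of the mitochondrial ribosome and 38 NADH dehydrogenase subunits none was called (1, 1, 0 and 2 were higher with library totals), against 5.95% higher and 10.2% lower over all genes. Their medians, -0.35, 0.02, -0.03 and -0.12, changed sign under another scaling for the ribosomal proteins (0.06 after quantile normalization), the mitochondrial ribosome (0.05) and NADH dehydrogenase (0.17).

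Antimicrobial peptide genes changed in both directions. Of 28 tested genes 6 rose and 5 fell. *Def*, defensin, rose to 89.5, 133 and 82.1 FPKM at P1, against 2.17, 4.20 and 1.39 FPKM in white prepupae (log2 change 4.88 ± 0.33, adjusted p = 8.0e-05). The cecropins *CecC* (29.2, 32.4 and 25.8 FPKM at P1, against 2.34, 3.88 and 2.55 FPKM in white prepupae) and *CecB* (28.5, 28.1 and 12.3 FPKM at P1, against 1.68, 3.77 and 1.45 FPKM in white prepupae) rose by 2.96 ± 0.17 and 2.83 ± 0.41, and *Drsl3* by 2.67 ± 0.41. P1 replicate 3 was the lowest P1 library for *CecB* but still above all 3 white prepupal ones. *Drsl5* and *Drsl2*, relatives of drosomycin, fell. *Drsl5* had 95.2, 119.9 and 104 FPKM at P1, against 3410.4, 1988 and 1584 FPKM in white prepupae (log2 change -4.37 ± 0.29, adjusted p = 7.6e-05). *Drsl2* had 7.85, 6.05 and 8.74 FPKM at P1, against 1469, 839.7 and 744 FPKM in white prepupae (log2 change -6.84 ± 0.28, adjusted p = 1.2e-05). White prepupal replicate 1 was the highest in both, and no P1 library came near them. *Listericin* fell as well, with 0.0587, 0 and 0.0562 FPKM at P1, against 27.1, 35.1 and 23.1 FPKM in white prepupae, and *Mtk*, metchnikowin, with 7.49, 5.05 and 2.93 FPKM at P1, against 31.9, 25.4 and 30.4 FPKM in white prepupae. Of 28 recognition and signalling genes of the Toll and Imd pathways 3 rose and 4 fell, against 5 and 3 with library totals. *SPE*, the protease that processes the Toll ligand Spätzle, rose (32.8, 36.8 and 32.6 FPKM at P1, against 4.90, 5.71 and 3.62 FPKM in white prepupae, log2 change 2.62 ± 0.15, adjusted p = 3.8e-05), as did *GNBP1*, a recognition protein (29.9 FPKM at P1 and 12.3 FPKM at WP, 1.22 ± 0.08). *pirk* (0.645 FPKM at P1 and 8.98 FPKM at WP, -2.59 ± 0.13) and *PGRP-LB* (1.52 FPKM at P1 and 6.42 FPKM at WP, -1.56 ± 0.08), negative regulators of Imd signalling, fell. Of 12 thioester and Turandot genes, *TotB* rose to 76.4, 95.6 and 68.6 FPKM, against 1.29, 0.745 and 1.52 FPKM in white prepupae (log2 change 5.22 ± 0.18, adjusted p = 6.6e-06), *TotZ* and *TotC* rose by 3.75 ± 0.18 and 1.11 ± 0.08, and *Tep1* and *Tep4* fell by -1.499 ± 0.13 and -1.82 ± 0.10.

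Blood cell genes did not move as a group. Of 12 tested genes 4 fell and 2 rose, and the median, -0.15, was positive under both other scalings (0.02 and 0.16). The prophenoloxidases of crystal cells fell furthest. *PPO1* had 0.0113, 0.0404 and 0.0108 FPKM at P1, against 33.2, 32.6 and 18.6 FPKM in white prepupae (log2 change -4.79 ± 0.23, adjusted p = 2.1e-05) and *PPO2* 0.313, 0.276 and 0.289 FPKM at P1, against 48.8, 42.2 and 30.5 FPKM in white prepupae (log2 change -4.98 ± 0.17, adjusted p = 6.5e-06). *He* (0.571 FPKM at P1 and 12.7 FPKM at WP, -3.10 ± 0.14) and the phagocytic receptor *eater* (0.296 FPKM at P1 and 2.33 FPKM at WP, -1.35 ± 0.13) also fell. *Sr-CI*, a scavenger receptor, rose (9.68 FPKM at P1 and 3.89 FPKM at WP, 1.13 ± 0.07), and *Pxn*, peroxidasin, rose by 1.02 ± 0.07 but by 0.98 and 0.99 without replicate 1 of white prepupae or of P1. *Hml* and *NimC1*, plasmatocyte markers, were not called (0.24 and -0.36), although *Hml*, a low gene here, was past the threshold with limma-voom (1.41), nor were *srp*, *Col4a1*, *vkg* and *crq* (-0.03, 0.11, 0.19 and -0.27).

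Small heat shock proteins, which ecdysone is known to induce, included 3 genes that fell of 6 tested. *l(2)efl*, a relative of alpha-crystallin, had 4.56, 3.53 and 4.95 FPKM at P1, against 123, 134 and 120.0 FPKM in white prepupae (log2 change -4.57 ± 0.11, adjusted p = 1.9e-06), and *Hsp67Bc* 105, 115 and 97.9 FPKM at P1, against 556, 524 and 456 FPKM in white prepupae (log2 change -2.26 ± 0.10, adjusted p = 1.4e-05). *Hsp23*, among the 10 most abundant genes of both stages, had 2879, 3164 and 2694 FPKM at P1, against 9233, 7108 and 6363 FPKM in white prepupae (log2 change -1.36 ± 0.21, adjusted p = 0.0025), but -0.64 after quantile normalization. *Hsp26*, *Hsp27* and *Hsp67Ba* were not called (-0.85 ± 0.08, -0.42 ± 0.10 and 0.53 ± 0.14). Of 68 tested cytochrome P450 genes 10 rose, led by *Cyp6a8* (27.7 ± 1.31 FPKM at P1 and 1.56 ± 0.0535 FPKM in white prepupae, log2 change 3.49 ± 0.07, adjusted p = 8.5e-07) and *Cyp309a2* (21.8 FPKM at P1 and 1.12 FPKM at WP, 3.44 ± 0.10), and 13 fell, led by *Cyp9b2* (49.6, 50.7 and 49.9 FPKM at P1, against 348, 304 and 261 FPKM in white prepupae, log2 change -2.57 ± 0.11, adjusted p = 1.2e-05) and *Cyp6d5* (19.5 FPKM at P1 and 119 FPKM at WP, -2.54 ± 0.10). Of 35 glutathione S-transferases 5 rose, *GstD5* most (17.3 FPKM at P1 and 0.910 FPKM at WP, 3.27 ± 0.14), and 3 fell, *GstO3* most (49.5 FPKM at P1 and 273 FPKM at WP, -2.44 ± 0.09). None of 7 oenocyte genes was called. *Cyp4g1*, the oenocyte enzyme of hydrocarbon synthesis, stood just under the threshold at 73.8 ± 1.90 FPKM at P1 and 38.02 ± 1.39 FPKM in white prepupae (log2 change 0.94 ± 0.04) and was higher under both other scalings (1.26 in each). In central metabolism most genes were not called. Of 16 tested TCA cycle genes 1 fell, of 16 glycolysis genes 2 fell, and none rose, against 10.2% of all genes lower. Among those that fell were *Ogdh* of the TCA cycle (17.6 FPKM at P1 and 78.9 FPKM at WP, -2.10 ± 0.05), whose gene overlaps a cuticle protein gene, and the hexokinase *Hex-C* (0.813 FPKM at P1 and 6.50 FPKM at WP, -2.04 ± 0.19).

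Transcripts that mark males varied between libraries of 1 stage. *lncRNA:roX1*, a noncoding RNA of male dosage compensation, had 44.7, 37.2 and 56.5 FPKM at P1, against 41.3, 31.02 and 58.2 FPKM in white prepupae (log2 change 0.11 ± 0.26, adjusted p = 0.75), with replicate 2 lowest and replicate 3 highest at both stages, and *lncRNA:roX2* had 9.86, 9.73 and 14.7 FPKM at P1, against 10.7, 5.39 and 11.4 FPKM in white prepupae. Of 19 testis genes 2 rose, none fell and all were above 0, with a median of 0.67. After quantile normalization 8 were higher and with library totals 9. The sum of the list was 666 to 1074 FPKM at P1 and 328 to 578 FPKM in white prepupae. *Mst98Ca*, a sperm nuclear protein gene, had 99.8, 77.9 and 136 FPKM at P1, against 49.7, 36.1 and 65.6 FPKM in white prepupae, in the order of *lncRNA:roX1* across replicates within each stage. Both *Mst98Ca* and *bol* lost their call without some single replicates (lowest log2 changes 0.82 and 0.87). For *Mst98Ca* the limma adjusted p was then 0.058 to 0.067. The part of the sex makeup in these results was not tested. Of 3 yolk protein genes *Yp3* rose (7.47 FPKM at P1 and 1.29 FPKM at WP, 1.92 ± 0.20), with *Yp1* and *Yp2* under 1 FPKM in all 6 libraries.

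The deposited table also assigns protein domain families to a part of the genes. The families named here were picked after their counts were seen. Of 209 tested genes of the trypsin family 76 (36.4%) fell and 19 (9.09%) rose, of 53 sugar transporter genes 19 (35.8%) fell and 5 (9.43%) rose, and of 26 lipase genes 12 (46.2%) fell and 2 (7.69%) rose. In the other direction 16 of 50 genes (32%) with an immunoglobulin I-set domain rose and 1 fell, and 6 of 14 with a laminin G domain (42.9%) rose and none fell. Both are domains of cell surface proteins, and *sns*, *hbs*, *rst* and *dpr19* above are among the I-set genes. By chromosome, 5.10% of the tested genes on X, 5.78% on 2L, 5.82% on 2R, 6.31% on 3L, 6.44% on 3R and 9.88% on the small chromosome 4 (8 of 81) were higher, and 7.75% on X to 11.6% on 3L of the large arms and 1.23% on chromosome 4 were lower. The longest run of higher genes, 6 in a row on chromosome 3L from 16259037 to 16265804, began with *CG13053* and *CG34247*. Another run of 5 higher genes follows, from 16271282 to 16280860.

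Across the 8 wild-type stages the genes higher at P1 had their highest mean at P1 in 26.8% of cases, at P2 in 23.3% and at P3 in 21.5%, against 12.6%, 6.42% and 24.1% of all tested genes. The genes lower at P1 had it in white prepupae in 37.5% of cases, and in L3L or L3E larvae (the later and the earlier third-instar stage) in 18.6% and 18.3%, against 11.0%, 8.04% and 19.0% of all tested genes. Since P1 and white prepupae took part in choosing these genes, the shares are a description. *CG7906* was at 0.281 FPKM in L3L, 3998 FPKM in white prepupae and 0.308 FPKM at P1, a peak of a single stage, as was that of *Cpr72Ea* at P1 (0.654, 2985 and 17.9 FPKM in white prepupae, P1 and P2). *ple* came back late, with 1776 FPKM in white prepupae, 0.671 at P1, 2.64 at P2, 148 at P3 and 1789.5 at P4. *Act88F* went on upwards, with 68.4, 1056, 5780.4, 9338 and 10399.8 FPKM from P1 to A0, the newly emerged adult. *Cht5* was high at P1 (990.0 FPKM), low at P3 (4.27 FPKM) and high again at A0 (535 FPKM). *Osi9*, called as higher at P1 with 2.96 FPKM, was at 976 FPKM at P2.

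**Figure D4:**
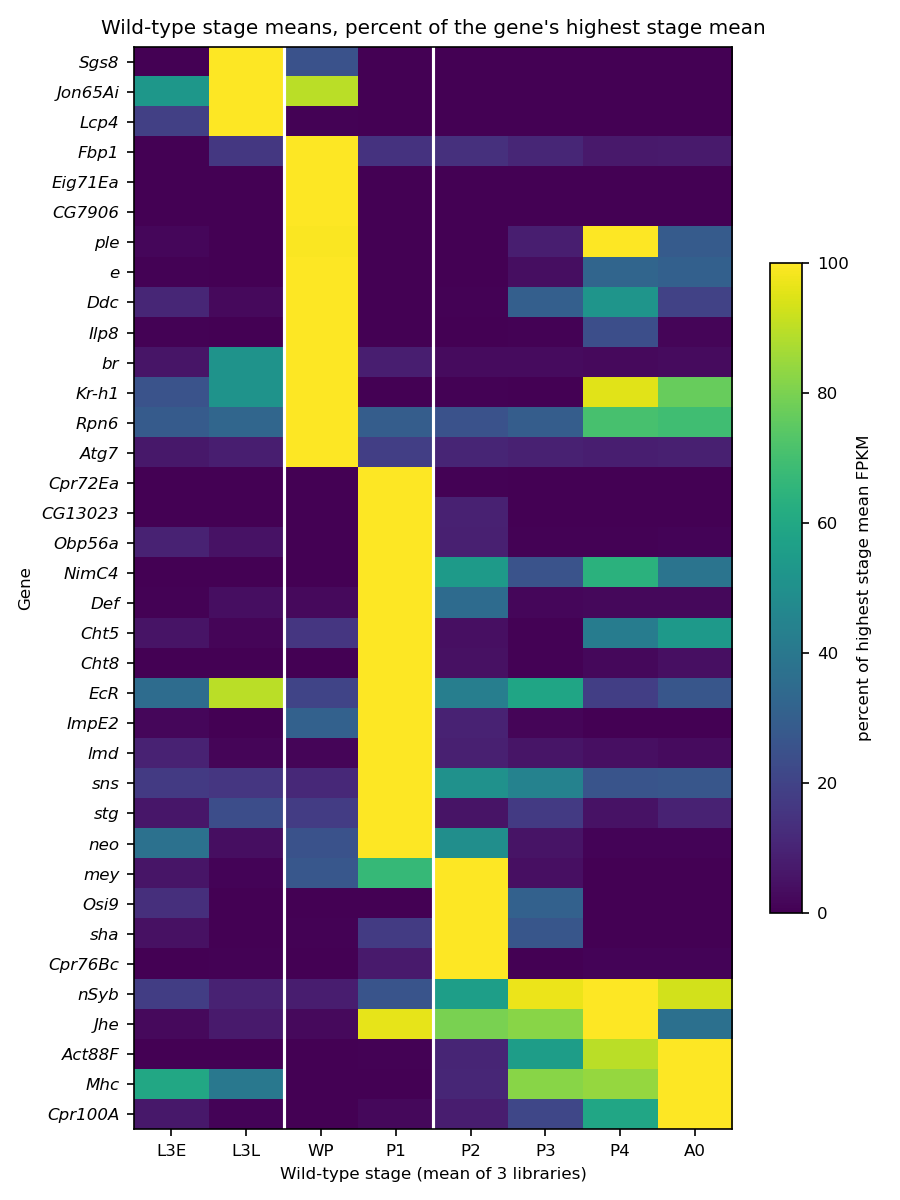
Mean FPKM of 36 named genes at the 8 wild-type stages (columns, 3 libraries each, in order of development, with the white prepupa and P1 columns between white lines), as a percent of each gene's highest stage mean. Most rows from *Sgs8* to *Atg7* have their highest value at or before the white prepupa, apart from *ple*, and the rows from *Cpr72Ea* on have theirs at P1 or later.

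*Ptth* mutants, in which the trigger of ecdysone synthesis is lost, passed through the same interval in 6 other libraries. Whether mutants and wild type had progressed equally far in development at the same named stage was not tested. In all genotype differences below, an effect of genotype and a difference in developmental progress cannot be told apart. The change from white prepupae to P1 was compared between genotypes, as wild-type change minus mutant change, in 1 limma fit of the 12 libraries. It was more positive in wild type for 122 genes (0.993% of those tested) and more negative for 185 (1.51%). Of the 1983 genes called in wild type, 199 were among these, 74 that rose and 125 that fell. None of the 10 steepest drops of wild type was called as different, as in *CG7906*, with a log2 change of -11.58 in wild type and -11.40 in mutants, or *ple*, with -10.05 in wild type and -10.36 in mutants. Of the 10 steepest rises 5 were, all more positive in wild type, which are *Cpr72Ea*, *CG34247*, *CG11570*, *CG1850* and *CG13053* (differences 1.23, 1.58, 1.16, 2.46 and 1.12). These 20 genes were chosen for their wild-type change. The 10 drops ended near 1 FPKM or below at P1 in both genotypes, where the log2(FPKM + 1) scale shrinks changes. The comparison could therefore hardly show a difference in how far they fell, and no conclusion is drawn from it.

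Several of the largest differences were found in genes whose level in mutants stood apart from wild type mainly at 1 of the stages. *Listericin*, *PPO1* and *PPO2* fell in wild type and were low in mutants at both stages. In mutants *Listericin* averaged 0 FPKM at P1 and 0.143 FPKM in white prepupae, *PPO1* 0.159 FPKM at P1 and 0.419 FPKM in white prepupae and *PPO2* 0.517 FPKM at P1 and 2.56 FPKM in white prepupae. The differences of the change were -4.62 ± 0.17, adjusted p = 4.1e-07 for *Listericin*, -4.50 ± 0.25, adjusted p = 4.8e-06 for *PPO1* and -3.75 ± 0.21, adjusted p = 4.8e-06 for *PPO2*. *Osi22* reached only 0.844, 0.952 and 1.95 FPKM in wild-type P1 pupae, while mutants averaged 45.6 FPKM at P1 and 0.0333 FPKM in white prepupae (-4.01 ± 0.78, adjusted p = 0.0091), and *CG43402* averaged 4.02 ± 1.21 FPKM at P1 and 0.561 ± 0.273 FPKM in white prepupae in wild type and 44.2 FPKM at P1 and 0.437 FPKM in white prepupae in mutants (-3.30 ± 0.23, adjusted p = 2.1e-05). *CG42792* and *tobi*, an alpha-glucosidase that responds to diet, changed more in the positive direction in wild type (4.61 ± 0.98, adjusted p = 0.015 and 3.34 ± 0.19, adjusted p = 4.9e-06). *CG15263* had 23.8, 20.1 and 19.97 FPKM at P1 in wild type and no read in any wild-type white prepupal library, at least 215-fold higher at P1. In mutants it averaged 0.0365 FPKM at P1 and 0.0126 FPKM in white prepupae (4.44 ± 0.09, adjusted p = 4.8e-09). *BomS3*, a short Bomanin peptide, was not called in wild type and differed between genotypes (-3.15 ± 0.42, adjusted p = 0.0011), with 0.524 ± 0.468 FPKM at P1 and 1.09 ± 0.753 FPKM in white prepupae in wild type and 7.28 FPKM at P1 and 0.235 FPKM in white prepupae in mutants.

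Muscle genes differed in 1 direction. Of 23 tested genes 12 had a more negative change in wild type than in mutants and none a more positive one, against 1.51% and 0.993% of all genes. *Mhc* averaged 9.61 ± 1.44 FPKM at P1 and 1.66 ± 0.298 FPKM in white prepupae in wild type and 54.6 FPKM at P1 and 0.856 FPKM in white prepupae in mutants (difference -2.91 ± 0.15, adjusted p = 3.8e-06), *Mlc2* 49.1 ± 4.67 FPKM at P1 and 22.6 ± 0.850 FPKM in white prepupae in wild type and 151 FPKM at P1 and 6.89 FPKM in white prepupae in mutants (-3.19 ± 0.12, adjusted p = 4.1e-07), and *Act88F* 421 FPKM at P1 and 0.364 FPKM in white prepupae in mutants (-2.63 ± 0.17, adjusted p = 1.1e-05). *wupA* fell in wild type (log2 change -1.57), whereas its change in mutants was 0.99 (-2.56 ± 0.12, adjusted p = 1.6e-06). The same sign was seen in 7 of 28 antimicrobial peptide genes, 4 of 21 Osiris genes and 3 of 11 zona pellucida genes, none of which had a more positive change in wild type. In contrast 6 of 46 midgut genes changed more in the positive direction in wild type and none in the other. Among Cpr genes 7 of 66 were more positive in wild type and 3 more negative, and *Cpr72Ea* itself averaged 2985 ± 257 FPKM at P1 and 0.654 ± 0.110 FPKM in white prepupae in wild type and 1428 FPKM at P1 and 0.864 FPKM in white prepupae in mutants (1.23 ± 0.12, adjusted p = 1.4e-04). *e* fell further in wild type than in mutants, which had 9.94 FPKM at P1 and 1265 FPKM in white prepupae (-2.56 ± 0.21, adjusted p = 5.5e-05).

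**Figure D5:**
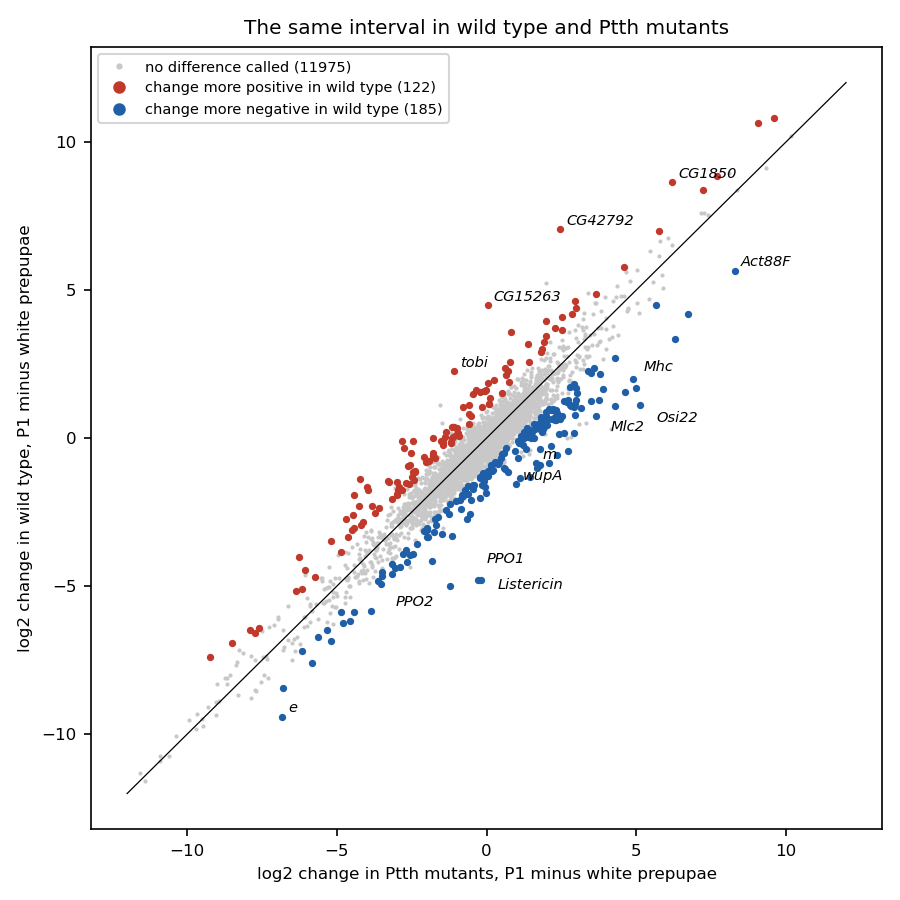
Log2 change of FPKM + 1 from white prepupae to P1 in wild type (vertical) against *Ptth* mutants (horizontal) for the 12282 tested genes, with genes whose change was more positive in wild type in red (122), more negative in blue (185) and the others in grey. Points on the line changed equally, and *Mhc*, *Mlc2* and *Osi22* lie to the right of it with larger rises in mutants.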

How the data were processed

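RNA of whole animals was sequenced, and the authors deposited FPKM for 17558 genes. The submitters' processing notes name HISAT2 2.0.5, featureCounts 1.5.0-p3 and BDGP6, whereas the study's methods name STAR and HTSeq. The sources used here do not say which library kit each library had or whether counting used strand, so overlapping genes are uncertain. Whole reads were recovered from FPKM and gene length (100% of values in 12 libraries within 0.001 of a whole number), and the library sizes behind the FPKM equalled median-of-ratios size factors.

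Genes with at least 3 FPKM in any of 48 libraries were tested on log2(FPKM + 1) with limma 3.58.1 (R 4.3.3, trend on, 6 libraries, two-sided, Benjamini-Hochberg over 12282 genes). Fold changes of low genes are understated on this scale. Calls needed an adjusted p below 0.05 together with a 2-fold change. The genotype comparison was the interaction in 12 libraries. Tests were tried on simulated data. Tables and plots were made with matplotlib 3.10.9, pandas 2.3.3 and numpy 2.4.6 under Python 3.11.15. No column of per-sample values stayed unmapped.

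Named genes were the 10 steepest rises and drops with a mean of at least 10 FPKM, the 10 most abundant per stage, list members (all tested ones of lists of up to 13, otherwise up to 4 called per direction), 3 runs of neighbours and the 10 largest genotype differences. Genes of these sets that the text did not need, among them some bristle, glial and moulting genes, were given only as counts. *usp*, *Hr4*, *E23*, *Eip78C*, *ftz-f1*, *Eip93F*, *Lcp3* and the 2 genes on each side of the FPKM minimum were added after their values were seen. Comparison, members and lists were chosen with earlier results of these data known. The study calls the 3 pools of a condition biological replicates. Whether they came from separate cultures is not given in the sources used here, and p-values measure the spread between these pools. Alternatives were other pseudocounts, filters, scalings and thresholds, limma-voom on recovered reads, a replicate block, a fit over 24 libraries and leaving out each library.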

Additional observations from a re-analysis of the deposited data

Results flagged for a closer look

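Among the 302 genes named, 44 changed differently between the genotypes from white prepupae to P1. The call was by the interaction in the fit of 12 libraries, with an adjusted p under 0.05 and a difference above 2-fold. Over all 12282 tested genes 307 were called in this way. The genes named include by rule the 10 largest of these differences, so the 44 are a description. Values are wild-type minus *Ptth* mutant log2 changes. In 15 genes the difference was positive. It was 4.61 in *CG42792*, 4.44 in *CG15263*, 3.34 in *tobi*, 2.46 in *CG1850*, 1.58 in *CG34247*, 1.16 in *CG11570*, 1.16 in *CG43082* and 1.12 in *CG13053*. Among cuticle genes it was 1.84 in *Cpr12A*, 1.44 in *Twdlbeta*, 1.24 in *Cpr100A* and 1.23 in *Cpr72Ea*. Among proteases and immune genes it was 1.56 in *Jon66Ci*, 1.01 in *betaTry* and 1.499 in *Tep1*.

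In the other 29 genes the difference was negative. Among immune genes it was -4.62 in *Listericin*, -4.50 in *PPO1*, -3.75 in *PPO2*, -3.15 in *BomS3*, -1.66 in *Drsl2* and -1.49 in *Drsl5*. Among muscle genes it was -3.19 in *Mlc2*, -2.91 in *Mhc*, -2.63 in *Act88F*, -2.56 in *wupA*, -1.58 in *TpnC73F*, -1.57 in *Act79B* and -1.30 in *Act87E*. Among Osiris, matrix, hair and cuticle genes it was -4.01 in *Osi22*, -3.06 in *Osi9*, -1.496 in *Osi12*, -2.50 in *m*, -1.33 in *mey*, -1.22 in *nyo*, -2.22 in *sha* and -1.11 in *Lcp65Ad*. The tanning enzymes *e* and *Ddc* had -2.56 and -1.78. The ecdysone-responsive *Eip78C* and *Eip63F-1* had -2.76 and -1.84, *Sgs5bis* had -1.66, *l(2)efl* had -1.42, *CG10477* had -1.03 and *CG43402* had -3.30. For *Eip78C* the mutant change was 1.44, against -1.32 in wild type.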

How the results depend on the processing

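Of the 302 genes named in the text, 207 were called, and 179 of these were called in the same direction under every alternative. A further 12 kept their call under the alternatives that tested them, but fell below the minimum when it was applied to the compared libraries alone, and 16 lost their call under at least 1 alternative. The log2 change of *Obp99b* reversed to 0.0627 after quantile normalization, and the cause was not tested. With limma-voom on recovered reads 3168 genes were called (1519 higher), and all 1983 calls were among them in the same direction. With a pseudocount of 0.1 or 0.25, 1373 or 1198 were higher, and with library totals 1777 were higher but 1028 lower, against 1252 lower as reported. With a 1.5-fold threshold 4052 were called, 2076 higher and 1976 lower. The number of genes whose change differed between genotypes was 484 (301 more negative in wild type) with a pseudocount of 0.1, 472 (296) with 0.25 and 737 (287 more positive, 450 more negative) at 1.5-fold. Leaving out each library in turn gave 1934 to 2203 called genes, 703 to 934 higher and 1231 to 1289 lower, and 284 to 338 for the genotype difference.

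A replicate block gave 732 higher and 1255 lower genes, and 119 and 177 for the genotype difference. Libraries of the same number correlated at -0.35, 0.46 and 0.45 between the stages in their deviations from stage means. For libraries of different numbers the range was -0.60 to 0.24. What the numbers stand for is not given in the sources used here, and they were not taken as pairs. With 3 pools a stage and no single animals, sex and exact age within a pool are not known.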
